A study of Bos taurus with 32 samples.

Results

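ISG15, USP18, PARP9, EPSTI1, IFIT5 and IRF7 are genes that cells switch on in response to interferon. They were followed in the liver of dairy cows around calving, through every probe set annotated to them alone on the array. These were 11 probe sets of 24016, for 6 genes of the 9155 that had a probe set of their own. The 6 genes were picked because their levels were higher 1 d after calving than before it, so that difference is described here with no test. What was tested is what the choice did not use: the diets, and how the genes varied together from cow to cow. Other genes of the pathway were tested too, but on the same days and arrays that the choice used. Their lists were drawn up with results of these data known, so they are no independent evidence.

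The samples were liver biopsies of Ayrshire cows, hybridised to Affymetrix bovine expression arrays. For 6 weeks up to the predicted day of calving the cows were fed a high-energy diet (HIGH) or a controlled-energy diet (CON). The label -8 d counts back from the predicted day, while 1 d and 9 d count on from the day on which the cow had in fact calved. At -8 d there were arrays of 5 HIGH and 5 CON cows, at 1 d of 6 HIGH and 4 CON cows, and at 9 d of 6 HIGH and 6 CON cows. That made 32 arrays of 12 cows, 6 on each diet. The design text speaks of more cows than these. All groups were sampled around calving, so calving and the passing of time, with whatever else changed over it, cannot be told apart. Arrays of the same cow share a number in the labels, and 8 cows (5 HIGH and 3 CON) had all 3 days. The labelled tissue held up in its hepatocyte markers: albumin (ALB) lay between 14.85 and 15 in all 32 arrays. APOA1, TTR, SERPINA1, TF and AHSG lay on average above at least 99.5% of probe sets, APOB above 98.9% and FGB above 97.2%. All values are log2 RMA values, so a difference of 1 is a doubling, and levels of different probe sets cannot be set against each other. In whole tissue, fewer cells of a type and less RNA per cell cannot be told apart.

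Type I interferons bind a receptor made of IFNAR1 and IFNAR2, which signals through the kinases JAK1 and TYK2. STAT2 and IRF9 are parts of the factor that then binds interferon-stimulated response elements in the promoters of many genes, most of them antiviral. ISG15 is a small ubiquitin-like protein that the enzymes UBA7, UBE2L6 and HERC5 attach to other proteins. USP18 takes it off again and also dampens signalling at the receptor. PARP9 works in a complex with the ubiquitin ligase DTX3L, IFIT5 binds RNA, IRF7 is a transcription factor that amplifies interferon production, and EPSTI1 is an interferon-induced gene of less settled function. In cattle ISG15 is known best from early pregnancy, when interferon tau of the conceptus raises it in the uterus, in blood cells and in the liver.

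ISG15, the ubiquitin-like modifier itself, had the widest swing of the 6 genes. Its level was 7.57 to 8.92 (median 8.18, n = 10) at -8 d, 9.01 to 11.62 (median 10.35, n = 10) at 1 d and 7.42 to 10.49 (median 7.98, n = 12) at 9 d. All 10 arrays of 1 d lay above all 10 of -8 d, whereas the values of 9 d overlapped both other days and 3 of the 12 lay above the highest of -8 d. The change averaged over the diets was 1.98 (SE 0.33) at 1 d against -8 d, or 3.95-fold, and 0.12 (SE 0.31) at 9 d against -8 d. For scale, 23.0% of all 24016 probe sets passed an adjusted p of 0.05 by limma at 1 d against -8 d and 9.44% at 9 d against -8 d. How many of all probe sets separated the days as fully was not counted, for ISG15 or for the genes below. Counts of arrays above the range of -8 d thus only describe genes chosen for being higher at 1 d.

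Within cows, ISG15 had risen by 1 d in 8 of the 8 that had both arrays, as a description of the values used to choose it. The HIGH cows changed by 3.47 (cow 432), 2.56 (cow 529), 1.81 (cow 439), 1.59 (cow 460) and 1.07 (cow 462), and the CON cows by 2.78 (cow 445), 2.00 (cow 483) and 1.52 (cow 477). The size of the change thus differed widely among animals of both diets, and the diets overlapped. At 9 d, 5 cows were above and 5 below their own -8 d level, between -1.33 in cow 460 and 2.30 in cow 483.

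USP18, which removes ISG15, was read by 4 probe sets that moved together. The brightest was 7.28 to 8.27 (median 7.73) at -8 d, 8.08 to 9.17 (median 8.76) at 1 d and 7.45 to 8.52 (median 7.77) at 9 d. At 1 d, 9 of 10 arrays lay above the highest of -8 d, the exception being cow 462. The change at 1 d against -8 d was 0.99 (SE 0.13) in this probe set and 0.98, 0.80 and 0.79 in the other 3, each upward in 8 of 8 cows. Across the 32 arrays, with group means removed, the 4 correlated with each other at r of 0.705 to 0.900.

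PARP9, the partner of DTX3L, was 7.46 to 8.25 (median 7.81) at -8 d, 8.29 to 9.21 (median 8.86) at 1 d and 7.52 to 8.53 (median 7.87) at 9 d. As with ISG15, no array of 1 d reached down into the range of -8 d. The change at 1 d against -8 d was 0.92 (SE 0.13), between 0.50 and 1.39 in the 8 cows, and 0.06 (SE 0.12) at 9 d against -8 d.

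EPSTI1 was 8.02 to 8.81 (median 8.27) at -8 d, 8.77 to 9.70 (median 9.09) at 1 d and 8.10 to 9.25 (median 8.50) at 9 d. Of the 10 arrays of 1 d, 7 lay above the highest of -8 d. Its change was 0.82 (SE 0.12) at 1 d against -8 d. At 9 d against -8 d it was 0.22 (SE 0.11), with 8 of 10 cows above their own -8 d level, more than for the other genes.

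IFIT5, which binds RNA, was 10 to 10.65 (median 10.32) at -8 d, 10.47 to 11.30 (median 10.88) at 1 d and 10.17 to 10.57 (median 10.41) at 9 d. It changed by 0.54 (SE 0.09) at 1 d against -8 d, in a range of 0.17 to 0.83 over the 8 cows. Here too 7 of the 10 arrays of 1 d were above all of -8 d, and none of 9 d was.

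IRF7, the transcription factor, gave a different answer by probe set. The brightest was 6.44 to 6.98 (median 6.57) at -8 d, 6.81 to 7.65 (median 7.10) at 1 d and 6.32 to 6.86 (median 6.48) at 9 d. It changed by 0.50 (SE 0.08), upward in 8 of 8 cows, with 6 of 10 arrays above the range of -8 d. The next brightest changed by 0.30 (SE 0.06), also in 8 of 8 cows. The dimmest did not follow: it was 5.04 to 5.40 at -8 d, 4.95 to 5.25 at 1 d and 4.88 to 5.25 at 9 d, changed by -0.10 (SE 0.05) at 1 d against -8 d and was lower at 1 d in 6 of 8 cows. With group means removed, the brightest IRF7 probe set correlated at r = 0.493 with the next and r = 0.236 with the dimmest, under each value among the USP18 probe sets. Which transcripts the 3 probe sets read was not tested.

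**Figure D1:**
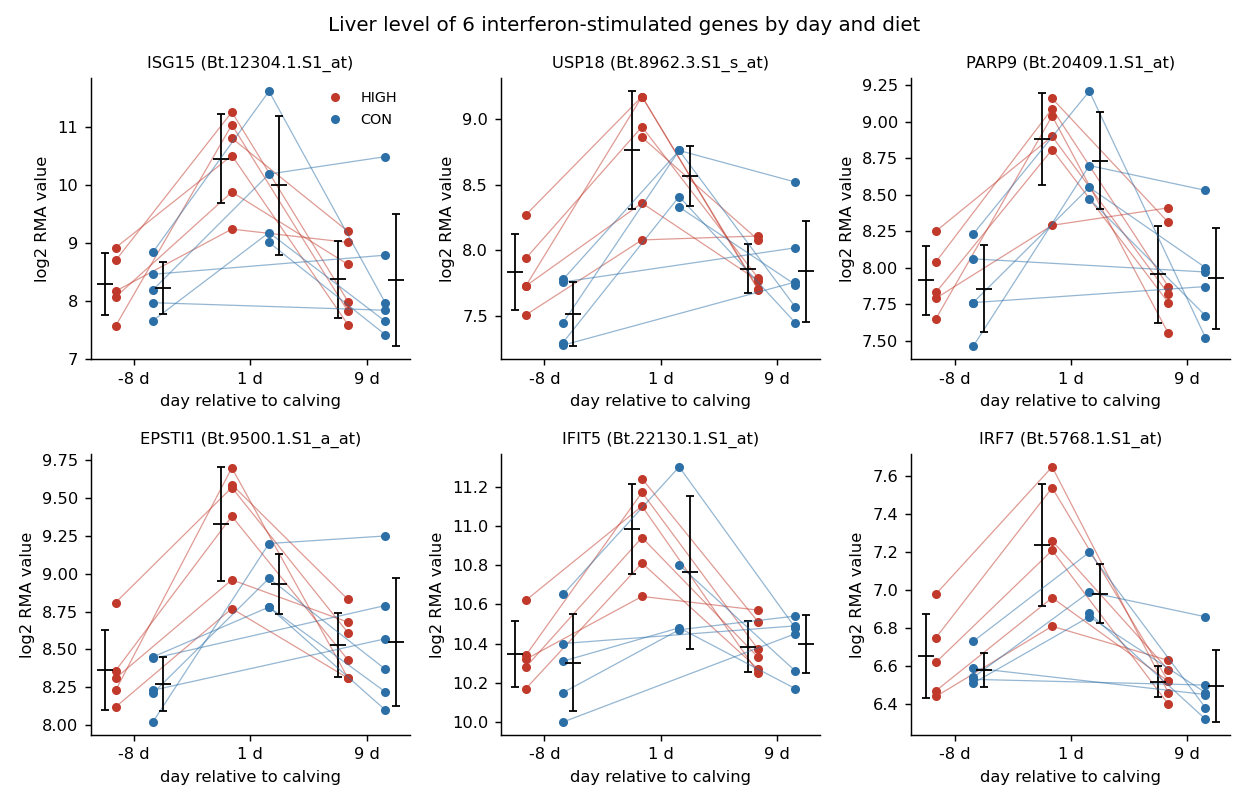
Log2 RMA value of the brightest probe set of each of the 6 genes in the 32 arrays by day, with HIGH in red and CON in blue, lines joining arrays of the same cow, and black bars for group mean ± SD. The 10 arrays of 1 d stand above all 10 of -8 d for ISG15 and PARP9, genes chosen for being higher at 1 d. At 9 d, 1 CON cow (cow 483, ISG15 at 10.49) stays high.

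Between 1 d and 9 d the genes came down in nearly every cow, by 1.86 (SE 0.31) for ISG15, 0.81 (SE 0.12) for USP18, 0.87 (SE 0.12) for PARP9, 0.60 (SE 0.11) for EPSTI1, 0.48 (SE 0.08) for IFIT5 and 0.60 (SE 0.08) for IRF7 on the log2 scale. In the brightest probe sets the level at 9 d was below that at 1 d in 10 of 10 cows for IRF7 and in 9 of 10 for the other genes. The exceptions were cow 483 for ISG15 (0.30), EPSTI1 (0.05) and IFIT5 (0.07), and cow 462 for USP18 (0.03) and PARP9 (0.12). These differences share the arrays of 1 d with the one the genes were chosen by, so they are no independent evidence. At 9 d against 1 d, 13.1% of all probe sets passed an adjusted p of 0.05 by limma.

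**Figure D2:**
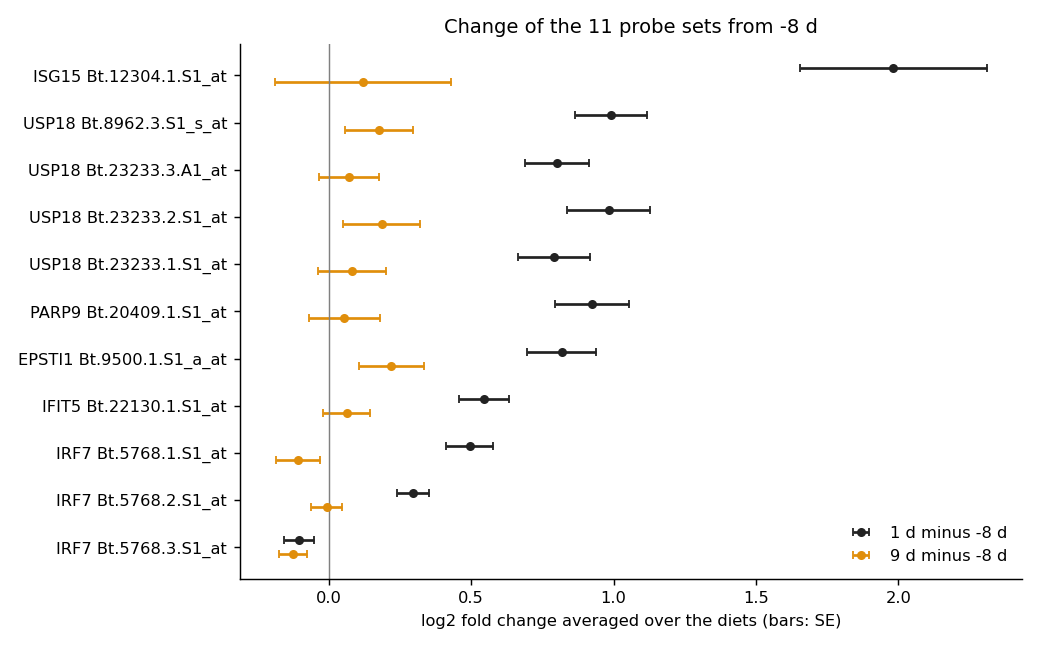
Change from -8 d, averaged over the diets, of the 11 probe sets at 1 d (black) and 9 d (orange), as log2 fold change with bars of 1 SE. All but the dimmest IRF7 probe set lie to the right of 0 at 1 d, up to 1.98 for ISG15, and the values of 9 d lie between -0.12 and 0.22.

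Which cow stood high was not the same on each day, as a look at the ranks showed after their values were seen. Cow 460 (HIGH) had the highest level at -8 d of ISG15, USP18, PARP9, EPSTI1 and IRF7, at 8.92, 8.27, 8.25, 8.81 and 6.98. At 1 d cow 445 (CON) was the highest in ISG15 (11.62), PARP9 (9.21) and IFIT5 (11.30), while its EPSTI1 (8.78) was close to the lowest of that day (8.77). Cow 462 (HIGH) was the lowest at 1 d in USP18 (8.08), PARP9 (8.29) and IRF7 (6.81), and at 9 d the highest in IFIT5 (10.57). Cow 432 (HIGH) changed most between -8 d and 1 d in ISG15 (3.47), USP18 (1.44), PARP9 (1.39), EPSTI1 (1.47) and IRF7 (0.79).

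At 9 d, cow 483 (CON) had the highest level of the 6 CON cows in all 6 genes, and was also singled out after its values were seen. Its ISG15 was 10.49, against 7.42 to 8.79 in the other 5 CON cows. Its USP18 was 8.52 (others 7.45 to 8.02), PARP9 8.53 (7.52 to 8.00), EPSTI1 9.25 (8.10 to 8.79), IRF7 6.86 (6.32 to 6.50) and IFIT5 10.54 (10.17 to 10.49). At -8 d the same cow was the lowest of all in PARP9 (7.46) and EPSTI1 (8.02). Without its 9 d array the change of ISG15 at 9 d against -8 d was -0.10 in place of 0.12.

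The comparison of the diets asks whether energy intake before calving bore on these genes, and none of the 11 probe sets differed between HIGH and CON past the threshold on any day. ISG15 at 1 d was 9.24 to 11.26 in HIGH cows (median 10.66, n = 6), against 11.62, 10.19, 9.18 and 9.01 in CON cows. The ranges overlapped and the highest value was in a CON cow. HIGH minus CON was 0.46 (95% interval -0.56 to 1.47, adjusted p = 0.857 by limma). The interval was wide, and single cows moved the value: it was 0.99 without cow 445 and 0.15 without cow 510, the ends of the range when an array or cow was left out, and 0.06 in the cows with all 3 days.

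EPSTI1 came nearest to a diet difference at 1 d. It was 8.77 to 9.70 in HIGH cows (median 9.48), against 9.20, 8.97, 8.78 and 8.78 in CON cows. Of the 6 HIGH cows 4 were above every CON cow, and the lowest of all was also HIGH. The difference was 0.38 (95% interval 0.01 to 0.75), with adjusted p = 0.579 by limma, and by exact permutation of cows p = 0.124. IRF7 (brightest probe set) was 6.81 to 7.65 in HIGH cows (median 7.24), against 7.20, 6.99, 6.88 and 6.86 in CON cows. It differed by 0.26 (0.00 to 0.51), with adjusted p = 0.592 by limma, and by exact permutation p = 0.210. The upper values were in HIGH cows, but the groups overlapped. By limma these were the only 2 of the 11 probe sets with an unadjusted p under 0.05 at 1 d, and there were 0 at -8 d and 0 at 9 d. Of all 24016 probe sets, 8.38% had such a p at 1 d, 4.27% at -8 d and 3.39% at 9 d. After adjustment 0% of them passed at -8 d, 0.00416% at 1 d and 0% at 9 d.

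The intervals were wide for ISG15 and narrower for the rest. At 1 d HIGH minus CON was 0.19 for USP18 (-0.20 to 0.59), 0.15 for PARP9 (-0.26 to 0.55) and 0.22 for IFIT5 (-0.05 to 0.50). At -8 d the largest difference was that of USP18, whose values were 8.27, 7.94, 7.73, 7.73 and 7.51 in HIGH cows, against 7.78, 7.76, 7.45, 7.30 and 7.28 in CON cows. The groups overlapped, and the difference was 0.34 (-0.05 to 0.72, adjusted p = 1.00). At 9 d the 11 differences lay between -0.08 and 0.14, with ISG15 at 0.01 (-0.90 to 0.92). Without the 9 d array of cow 483 the difference of ISG15 at 9 d was 0.44 (adjusted p = 1.00), without cow 510 it was -0.17, and in the cows with all 3 days -0.50.

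The change over time did not differ between the diets past the threshold either. From -8 d to 1 d ISG15 changed by 2.14 (SE 0.44) in HIGH cows and 1.82 (SE 0.49) in CON cows, and EPSTI1 by 0.95 (SE 0.16) in HIGH cows and 0.69 (SE 0.18) in CON cows. The differences of these changes were 0.32 (-1.02 to 1.66) for ISG15 and 0.26 (-0.23 to 0.75) for EPSTI1, with adjusted p of 0.951 and 0.865 by limma. Leaving out an array or cow gave 0.02 (without cow 432) to 0.86 (without the 1 d array of cow 445) for ISG15, and 0.15 (without cow 432) to 0.41 (without cow 483) for EPSTI1. With cow as a fixed block they were 0.04 for ISG15 and 0.13 for EPSTI1. None of the 11 probe sets passed for diet by time at 1 d or at 9 d against -8 d, where 0% of all probe sets passed as well. With no adjustment 0 probe sets at 1 d and 1 at 9 d had p under 0.05 by limma, where 7.17% and 3.29% of all probe sets did. The 1 was the dimmest probe set of IRF7 (0.22, 95% interval 0.02 to 0.42). By exact permutation of cows between the diets (two-sided), 0 of the 33 probe set and day combinations had p under 0.05, the smallest being p = 0.0779, where the group sizes allow p of 0.00216 to 0.00952.

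**Figure D3:**
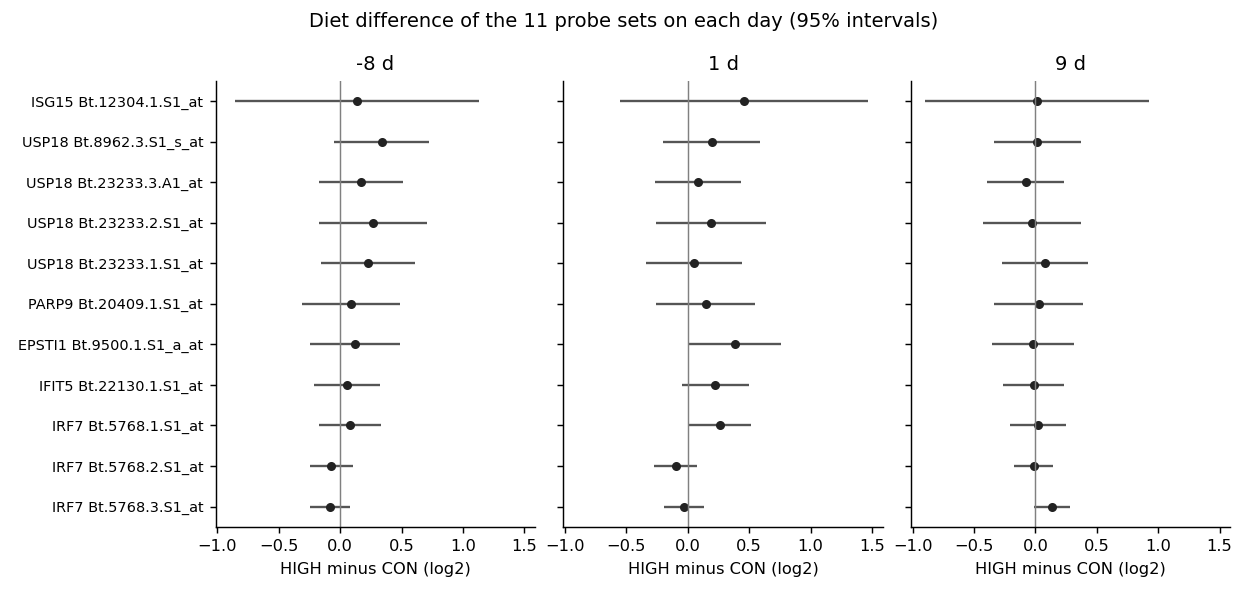
HIGH minus CON for each of the 11 probe sets on each of the 3 days, as log2 difference with 95% intervals. The interval of ISG15 is the widest (-0.56 to 1.47 at 1 d), and those of EPSTI1 and the brightest IRF7 probe set at 1 d just miss 0 before adjustment.

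The other genes of the pathway were not used to choose the 6, though their lists were drawn up with results of these data known. At 1 d against -8 d they were tested on the arrays by which the 6 were chosen, so their rises are no independent evidence. Of 128 other genes on 7 lists, 73 had a probe set here. At 1 d against -8 d, 27 of the 73 rose and 2 fell by limma, where 16.5% of all genes rose and 12.3% fell. The median change of the 73 was 0.15, beside 0.00 over all genes. At an unadjusted p under 0.05 the numbers were 35 and 6. Of the 29 calls, 19 held in every other fit tried (51 at most) and 10 were lost at least once.

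Among the enzymes that attach ISG15, those of the first steps rose and HERC5 and HERC6 did not pass. UBA7, the activating enzyme, was 7.25 to 7.94 at -8 d, 7.63 to 9.01 at 1 d and 6.66 to 7.82 at 9 d, and rose by 0.70 (SE 0.16, adjusted p = 0.00172) at 1 d. UBE2L6, the conjugating enzyme, rose by 0.50 (adjusted p = 0.0107, and 0.0638 without cow 483), and TRIM25, a ligase for ISG15 as well as ubiquitin, by 0.49 (adjusted p = 0.000289). HERC5, the main ligase in humans, was 3.81 to 4.98 at 1 d, against 4.22 to 4.69 at -8 d, and changed by -0.12 (adjusted p = 0.49). HERC6, which has that role in mice, changed by 0.14 (adjusted p = 0.0798) and was at 2.61 to 3.26 in all arrays, near the lowest value of the table (2.35). In all, 3 of the 6 genes measured for ISG15 conjugation and removal rose and none fell, with 4 and 0 at an unadjusted p under 0.05.

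Of 4 partners and relatives of PARP9, 3 rose and 0 fell, with 0 falling at an unadjusted p under 0.05 as well. DTX3L, its binding partner and its neighbour in the cattle genome, rose by 0.43 (SE 0.11, adjusted p = 0.00411), and PARP14, the next gene along, by 0.61 (SE 0.13, adjusted p = 0.000973). PARP12 rose by 0.51 and PARP11 changed by -0.06 (adjusted p = 0.568). The 6 chosen genes themselves are not neighbours of each other within 3 genes on either side.

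Of 25 antiviral effectors, 13 rose and 0 fell, with a median of 0.39. LY6E did not pass, but was lower at 1 d in every fit with an array or cow left out (-0.32 to -0.21). MX1, a GTPase that blocks viruses, was 6.56 to 8.48 at -8 d, 7.23 to 10.07 at 1 d and 6.14 to 8.69 at 9 d. The days overlapped, and MX1 rose by 1.07 (SE 0.30, adjusted p = 0.00928) at 1 d. IFI27 rose by 1.04 (adjusted p = 0.011, and 0.0522 without cow 445) and EIF2AK2, the kinase PKR, by 0.83. Smaller rises were those of IFI44 by 0.80, IFI44L by 0.67, LGALS3BP by 0.64, PNPT1 by 0.53 and MX2 by 0.39. RTP4 rose by 0.69 (adjusted p = 0.0379), a call lost in 21 of 51 other fits. That of MX2 was lost in 4, with adjusted p up to 0.123: with cow as a fixed block, in the cows with all 3 days, without cow 510 and without the 1 d array of CON replicate 1. Other well-known members did not pass. IFI6 changed by 0.87 (SE 0.35, adjusted p = 0.0701), with values of 7.61 to 10.77 at 1 d. OAS1X changed by 0.37 (adjusted p = 0.106) and RSAD2 (viperin) by 0.18 (adjusted p = 0.494). IFIT2, which lies near IFIT5 with IFIT3 among the genes between them, changed by -0.02 (SE 0.09, adjusted p = 0.923). IFIT2 was 4.66 to 5.62 at 1 d, against 4.88 to 5.40 at -8 d, so its values overlapped.

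Among 5 sensors of viral RNA and DNA, the 3 that rose were DHX58 (LGP2), IFI16 and TLR3. DHX58 was 7.34 to 7.73 at -8 d, 7.70 to 8.30 at 1 d and 7.09 to 7.86 at 9 d, and rose by 0.45 (SE 0.09, adjusted p = 0.000366). IFI16 rose by 0.51 (adjusted p = 0.0141, up to 0.0626 without cow 432, cow 445 or the 1 d array of CON replicate 1, where the call was lost) and TLR3 by 0.52 (adjusted p = 0.00194).

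In the signalling chain, 3 of 9 genes rose. STAT2 was 8.64 to 9.11 at -8 d, 9.03 to 9.98 at 1 d and 8.83 to 9.33 at 9 d, and rose by 0.54 (SE 0.10, adjusted p = 0.000101). IRF3, which starts interferon production, rose by 0.27 (adjusted p = 0.00221) and NMI by 0.38 (adjusted p = 0.0121, and 0.0517 without cow 483). IRF9, the partner of STAT2, changed by 0.26 (adjusted p = 0.0672) and JAK1 by -0.11 (adjusted p = 0.0857). Of 8 interferons and receptors, IFNAR1 rose by 0.30 (adjusted p = 0.0228, and up to 0.1 where the call was lost, in cows with all 3 days and without cow 477, 483 or 529) and IL10RB, a subunit of the receptor for lambda interferons, by 0.34 (adjusted p = 0.00189). IFNAR2 changed by 0.09 (adjusted p = 0.503). The interferon genes IFNB1 (0.08), IFNAC (-0.11), IFNT2 (-0.10) and IFNG (-0.13) did not pass. Whether their probe sets read enough signal to show a rise was not tested.

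Of 16 genes led by interferon gamma, 0 rose and 2 fell, where 16.5% of all genes rose and 12.3% fell. With no adjustment 0 were higher at p under 0.05 by limma, and the median of the list was 0.00, as over all genes. PSMB8 and PSMB9 (immunoproteasome subunits) changed by -0.13 and -0.05, TAP1 (peptide transport) by 0.12, GBP4 by 0.33 and GBP5 by -0.05. CXCL10, a chemokine, was 7.05 to 11.03 (median 7.31) at -8 d, 5.45 to 9.52 (median 6.39) at 1 d and 5.87 to 7.92 (median 6.86) at 9 d. The days overlapped widely, CXCL10 fell by 1.07 (SE 0.39, adjusted p = 0.0468), and its call was lost in 34 of the 51 other fits (adjusted p up to 0.113). BOLA-DRA, a class II antigen presentation gene, fell by 0.23 (adjusted p = 0.0486), lost in 34 of 51 as well (up to 0.188). Whether this list differed from the others was not tested.

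**Figure D4:**
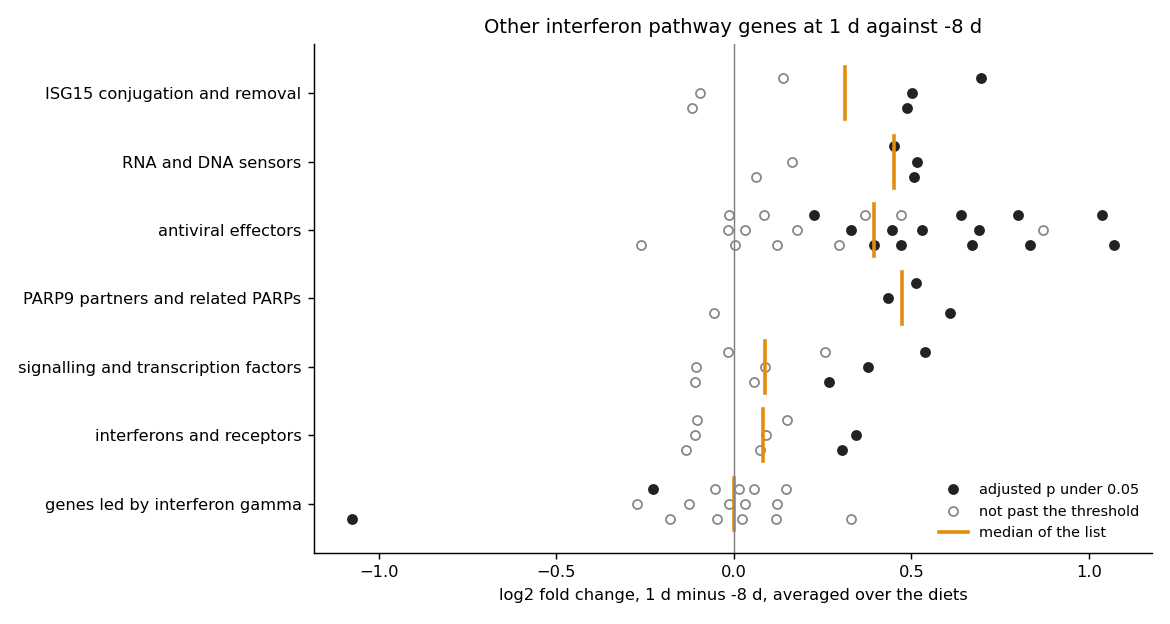
Log2 fold change at 1 d against -8 d of 73 other interferon pathway genes in 7 lists, 1 point a gene, filled where adjusted p was under 0.05, with the median of each list in orange. The filled points lie above 0 in all lists but that led by interferon gamma, whose 2 filled points, CXCL10 at -1.07 and BOLA-DRA at -0.23, lie below.

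At 9 d few of these genes differed from -8 d. Against -8 d, 2 of the 73 rose and 3 fell (7.79% and 5.08% of all genes). IRF5 rose by 0.22 and IL10RB by 0.24, and IRF9 fell by 0.33, SOCS3, a brake on cytokine signalling, by 0.28 and PSMB10 by 0.40. Each of these 5 calls was lost in at least 1 other fit. Against 1 d, 31 fell and 0 rose (10% and 7.44% of all genes), with 1 upward at an unadjusted p under 0.05. Of these 31 calls, 19 held in every other fit tried and 12 were lost at least once. MX1 fell by 1.23 (adjusted p = 0.00323), RTP4 by 1.08, UBA7 by 0.86 and IRF9 by 0.59. The comparisons with 1 d share its arrays. Between the diets 0 of the 73 passed by limma on any day (0.0109% of all genes were called higher at 1 d, and 0% otherwise), with 3 higher and 0 lower at an unadjusted p under 0.05 at -8 d, 8 higher and 1 lower at 1 d and 1 higher and 0 lower at 9 d. Of all genes, 2.06% were higher and 2.23% lower at that p at -8 d, 4.12% and 4.13% at 1 d, and 2.12% and 0.918% at 9 d.

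Some markers of other cells and of RNA state moved over the same days, and their part in these changes was not tested. For scale, 16.5% of all genes rose and 12.3% fell past the threshold at 1 d against -8 d. Of 6 neutrophil markers 4 rose at 1 d against -8 d (S100A12 by 2.43, S100A8 by 1.66, LTF by 1.54 and S100A9 by 0.80), and the mean of that list was 5.66 to 6.35 at -8 d, 6.63 to 8.09 at 1 d and 6.01 to 7.14 at 9 d. Of 10 T and NK cell markers CD3G, PRF1, GZMB, CD5 and CD2 fell, with list means of 5.60 to 6.13 at -8 d, 5.56 to 6.08 at 1 d and 5.47 to 6.04 at 9 d. Of 8 macrophage and Kupffer cell markers VSIG4 rose and CD14 fell, and the list mean overlapped between the days (10.05 to 10.68, 10.02 to 10.72 and 9.93 to 10.56). Of 4 markers of plasmacytoid dendritic cells, known as strong interferon producers, GZMB fell and 0 rose, and GZMB is also on the T and NK list. Of the hepatocyte markers 2 rose and 5 fell. EMCN, 1 of 5 endothelial markers, fell, and of 3 B cell and 6 stellate cell markers 0 passed by limma in either direction, with 0 B cell markers and 2 stellate cell markers, both lower, at an unadjusted p under 0.05. The 3' minus 5' difference of the EF1-alpha control lay at -0.84 to -0.47 at -8 d, -1.43 to -0.85 at 1 d and -1.07 to -0.65 at 9 d, while that of GAPDH was 0.45 to 0.64, 0.32 to 0.81 and 0.46 to 0.66. For actin it was 1.28 to 2.20 at -8 d, 1.1 to 1.92 at 1 d and 1.32 to 3.87 at 9 d. The 3.87 was that of cow 528 (CON) at 9 d, and the next highest was 2.19. Without that array the change of ISG15 at 9 d against -8 d was 0.08 in place of 0.12.

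From cow to cow the 6 genes varied together. With diet means removed, the 15 pairs had a median Pearson r of 0.789 (0.503 to 0.870) over the 10 cows at -8 d, 0.722 (0.175 to 0.939) over the 10 at 1 d and 0.806 (0.532 to 0.920) over the 12 at 9 d. After Benjamini-Hochberg adjustment of permutation p over the 15 pairs of a day, 13, 10 and 12 pairs passed by Pearson r and 3, 4 and 13 by Spearman rho. Without the 2 cows farthest from the median of the first gene, 6, 9 and 13 of the 15 kept an r of at least 0.5, so at -8 d the relation was below that without those cows in the other 9 pairs.

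The r of the 15 pairs at 1 d ran from 0.175 to 0.939, and whether pairs differ was not tested. Those named here hold the highest, USP18 and IRF7, and the lowest, EPSTI1 and IFIT5. ISG15 and PARP9 had r = 0.936 (permutation adjusted p = 0.000975) and rho = 0.952 (permutation adjusted p = 0.00105), and r = 0.912 without the 2 farthest cows. USP18 and IRF7 had r = 0.939 (permutation adjusted p = 0.0009) and rho = 0.939 (0.00142), and r = 0.866 without them. EPSTI1 and IFIT5 had r = 0.175 (permutation adjusted p = 0.628) and rho = 0.140 (0.699), and -0.38 without them. At 9 d that pair had r = 0.571 (permutation adjusted p = 0.058), and whether the days differ was not tested. For the change between -8 d and 1 d in the 8 cows, the median r was 0.720 (-0.004 to 0.904), given with no test since the genes were chosen by that change. It was 0.904 for USP18 and EPSTI1 and 0.840 for ISG15 and PARP9.

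**Figure D5:**
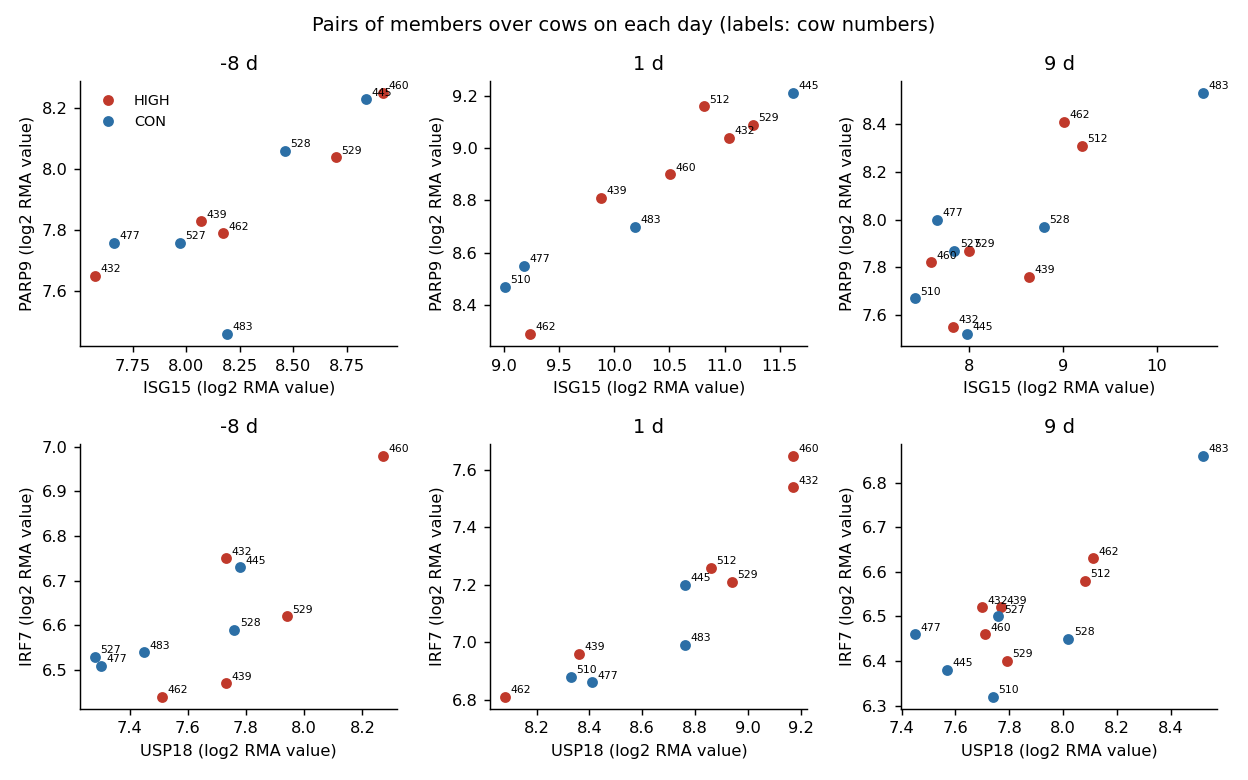
ISG15 against PARP9 (top) and USP18 against IRF7 (bottom) over cows, with a panel for each of the 3 days, in log2 RMA values, HIGH in red and CON in blue, with cow numbers. At 1 d the points run along a line (r of 0.936 and 0.939 with diet means removed), and at 9 d cow 483 lies farthest out in both pairs.

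Over all 32 arrays, with the means of the 6 groups removed, each gene correlated with the mean of the other 5 at r of 0.904 (USP18), 0.873 (PARP9), 0.854 (ISG15), 0.789 (IRF7), 0.746 (EPSTI1) and 0.682 (IFIT5). The arrays share cows, so these are given as a description. Of the 9149 other genes, those most like the mean of the 6 by the same measure were IFI16 (r = 0.900), RTP4 (0.897), IRF9 (0.835), XAF1 (0.820), PARP14 (0.818), DTX3L (0.803), IFI6 (0.800), PSMB9 (0.781), ZNFX1 (0.777) and DHX58 (0.744). All 10 were on the pathway lists, which held 73 of the 9149 genes, and so were 26 of the first 50. Those lists were drawn up with results of these data known, so the overlap is no independent evidence. The gene at rank 11 had r = 0.717 and the median over all genes was 0.02. Left out of this ranking were 8 probe sets with no single gene name whose r was at least that of DHX58. Not all of the 10 passed the test over time: PSMB9 changed by -0.05 (adjusted p = 0.827) and IRF9 by 0.26 (adjusted p = 0.0672) at 1 d against -8 d.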

How the data were processed

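Per the submitters' processing notes, the authors made the deposited log2 values with Affymetrix Expression Console 1.1 and RMA, whose settings are not given in the sources used here. RMA forces 1 distribution on every array, so a shift of the whole transcriptome would not show. The values ran from 2.35 to 15.0 with array medians of 5.87 to 5.935, and precision is limited by how many arrays there are. The table held 24128 probe sets, 112 of them controls that were not used. Of the 24016 tested, 13292 carried 1 gene symbol in the array annotation (9155 genes), 86 several and 10638 none. Symbols were updated, and gene neighbours read, with RefSeq on ARS-UCD2.0. Besides every probe set of the 6 genes, the value of a gene is that of its probe set with the highest mean.

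limma 3.58.1 in R 4.3.3 fitted a mean for each of the 6 groups and took cow as random block (consensus correlation 0.138, 26 residual degrees of freedom, mean-variance trend, two-sided). Benjamini-Hochberg adjustment ran within each contrast, over its 24016 probe sets, with a threshold of 0.05. Diet contrasts were set on each day, time contrasts averaged over the diets and within each, and diet by time. Arrays were paired by the cow number of the descriptions, since replicate numbers do not follow it: with group means removed, arrays of the same cow correlated at 0.229 to 0.464 (28 pairs), against a mean of -0.0638 for other cows of the diet. Correlations between genes used 100000 permutations. The fit was also run on simulated data, with planted changes larger than the fitted diet differences of the 6 genes. It cannot tell whether differences as small as those would be found.

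The 6 genes, the 7 pathway lists and the 8 marker lists were chosen with earlier results of these data known. Named were all 6 genes, 29 measured pathway genes given by name, the 10 genes most like the 6, and the members of any list with 5 or fewer calls. LGALS3BP, PNPT1, LY6E, RTP4 at 1 d, PARP11, the interferon genes, and the gene pairs and cows named were singled out after their values were seen.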

Additional observations from a re-analysis of the deposited data

Results flagged for a closer look

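The highest and lowest array of each probe set and group were examined by their gap to the nearest other array as a share of the range of the group, against Dixon's 95% critical value. Of 66 combinations 2 passed, and both were the 9 d array of cow 483 (CON). Chance passes about 1 in 20 independent groups, and these 66 share cows and genes. For USP18, in the probe set with a mean of 7.40, it was 8.01, against 6.98 to 7.17 in the other 5 CON cows. For IRF7, in the brightest probe set, it was 6.86, against 6.32 to 6.50. The brightest probe sets of the other 5 genes were also highest in this cow within CON 9 d, where the gap was a smaller share of the range. For ISG15 the array was at 10.49, against 7.42 to 8.79 in the other 5. No cause was tested.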

How the results depend on the processing

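No diet call of the 11 probe sets appeared in any fit: leaving out each array or each cow, treating arrays as independent (no replicate block), cows with all 3 days, a mean of at least 5, no trend, median centring and arrayWeights all gave 0. Uncalled values did change sign, such as ISG15 at 9 d against -8 d (-0.10 to 0.28) and between the diets at 9 d (-0.17 to 0.44) on leaving out an array or cow. Pathway genes that rose at 1 d against -8 d numbered 27, and 23 to 29 in the other settings that counted genes (29 with cow as a fixed replicate block and 26 with no replicate block), 24 to 31 when an array or cow was left out, and 38 of 104 with every probe set counted. Those that fell numbered 2, and 0 with no replicate block, 1 with arrays centred on their medians, 4 with arrayWeights and 0 to 5 when an array or cow was left out. At 9 d against -8 d the 2 that rose became 0 with no replicate block, 0 with cows of all 3 days, 4 with arrayWeights, 1 with the probe set of median level and 0 to 4 on leaving one out. The 3 that fell became 5 with cow as a fixed replicate block, 0 with cows of all 3 days, 8 with arrayWeights and 1 to 6 on leaving one out. The 31 that fell at 9 d against 1 d were 22 to 31 in the other settings that counted genes, 42 with every probe set and 21 to 32 on leaving one out. The cause was not tested. Leaving out cows, and the 9 d array of cow 483, were chosen after seeing the data, and fits with an array or cow left out kept the cow correlation of all arrays. Probe sets near the lowest value of the table, such as HERC6, can show little change.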
